A study of Mus musculus with 15 samples.

Results

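Tumour cells sorted after 14 days of vismodegib were compared with tumour cells sorted after 6 days of the drug, across all genes. The comparison used every library labelled 14 days (3) and every library labelled 6 days (8), 11 of the 15 libraries in the series. The other 4 were controls, which entered the filter on low counts, the scaling of libraries and the shared estimate of spread. They also entered the fits with covariates or corrections, but not the comparison itself, and their levels are quoted as background. Every group carried the same alleles, K14Cre-ER; Ptch1fl/fl; p53fl/fl;Lgr5GFP, and every library is labelled as skin with a diagnosis of basal cell carcinoma. The controls therefore carry the floxed Ptch1 and p53 alleles too, and the inducible Cre is driven by the keratin 14 promoter, which is active in basal keratinocytes of epidermis and hair follicle. The labels name no sort gate, vismodegib dose, age or sex. Nothing in the labels says that libraries of 1 group came from separate mice, so p-values measure only the spread between these libraries, which may be technical.

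Basal cell carcinoma is a skin tumour that depends on Hedgehog signalling. The receptor PTCH1 holds the membrane protein SMO inactive. When PTCH1 is lost, SMO signals through the GLI transcription factors, which switch on targets such as Gli1, Ptch1 itself and Hhip. Vismodegib binds SMO and blocks it. Treated basal cell carcinomas shrink, but residual tumour can grow again when the drug is stopped.

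The 6-day libraries held between 27336935 and 256569828 counted reads and the 14-day libraries between 119045864 and 162951666. The submitters' sample identifiers fall into 3 ranges. Range A held 5 of the 6-day libraries, range B the other 3, and all 3 of the 14-day libraries had a range of their own, so that range and 14 days of drug cannot be told apart. The labels do not say what the ranges are. Across genes, the median correlation of log2(CPM + 1), where CPM is counts scaled to a library of 1e6 reads, was 0.933 between 6-day libraries of range A and range B. It was 0.966 between 14-day and range A libraries and 0.926 between 14-day and range B libraries. The 14-day libraries thus lay nearer to range A than range A lay to range B, and each result below was also fitted against each range alone. At 14 days 3 of 3 libraries had more Xist than Y-linked Ddx3y, and at 6 days 4 of 8 did. Keratinocyte markers were abundant in every library: Krt5 lay between 6337 and 14826 CPM at 6 days and between 6180 and 10432 CPM at 14 days, and Epcam between 315 and 705 CPM against 407 to 543 CPM. The markers of T, B and NK cells summed to at most 0.879 CPM in any of the 11 libraries.

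Between 6 and 14 days, 402 genes rose and 328 fell at an adjusted p under 0.05 by edgeR's quasi-likelihood test, which was 730 of 18751 genes tested (3.89%; 2.14% higher and 1.75% lower). The genes that rose included genes of mitosis and of macrophages. Those that fell included short genes of the respiratory chain together with the transcriptional regulators Ski and Irf2bp2. A change of at least 2-fold was fitted for 204 of the genes that rose and 212 of those that fell. In 309 of the 402 and 320 of the 328, the 3 values at 14 days all lay beyond the 8 values at 6 days. Over all genes tested such separation was found for 5.42% upward and 6.28% downward. The 12 genes of each direction named for the largest fold were picked among separated genes, so their separation is no result.

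The 3 libraries at 14 days were not alike. The first had the highest of the 3 values for 347 of the 402 genes that rose, and the second had the lowest for 324. Among the 328 genes that fell, the first was lowest for 225. Without the first 14-day library 3 genes were called, without the second 652 and without the third 43. None of the gene lists described here had a called member without the first. Without the third only the microglia list (1 of 14 tested) and the nuclear-encoded respiratory chain (1 of 77) had one. All 730 genes kept their direction without any 1 of these 3. They also kept it against range B alone, and 729 of 729 with a value kept it against range A alone. These fits reuse most of the libraries on which the 730 were called, so a kept direction is no separate support. The number called both overall and against each range was 530, of which 259 rose and 271 fell. Against range A alone 7.37% of the genes tested were called (3.74% higher, 3.63% lower), and against range B alone 35.6% (17.6% higher, 18% lower). Correction of each library for gene length and GC content left 2.23% of genes called (0.736% higher, 1.5% lower), among them 217 of the 730. With sex as a covariate 209 of the 730 remained called.

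**Figure D1:**
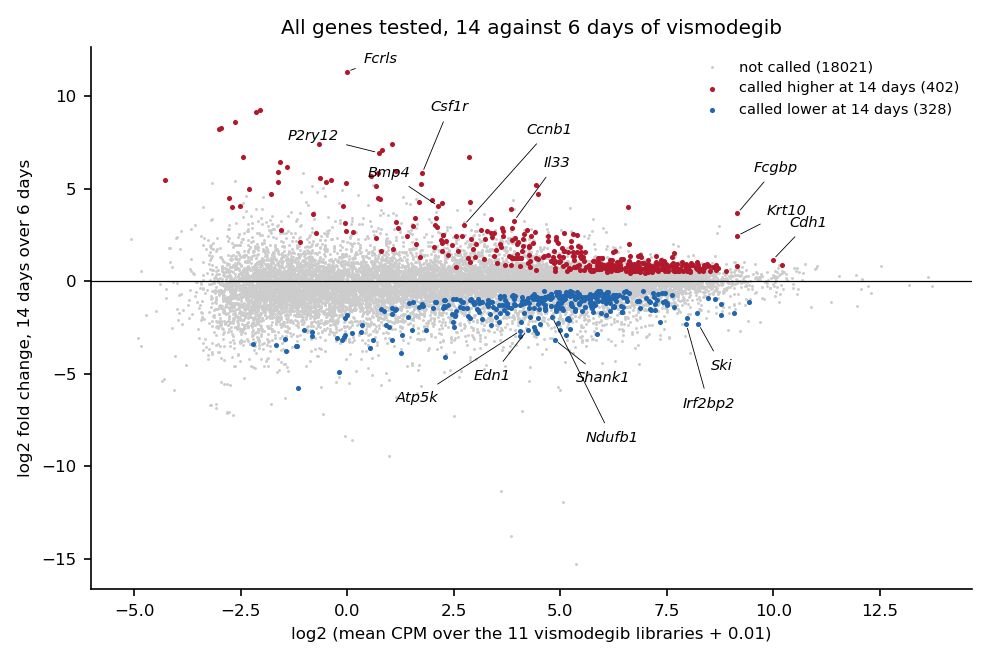
Each point is 1 of the 18751 genes tested, with log2 of its mean CPM over the 11 vismodegib libraries on the x axis and its fitted log2 fold change, 14 days over 6 days, on the y axis. Red points are the 402 genes called higher at 14 days and blue points the 328 called lower (edgeR, adjusted p under 0.05); fitted folds of genes at 0 at 6 days, such as Fcrls, depend on the prior count.

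Only 3 genes were called in all 15 fits that left out 1 library, and all 3 fell. They were singled out after their values had been seen. Ski, a corepressor of the SMAD proteins that carry TGF-beta and BMP signals (chromosome 4, 155154075 to 155222535, GRCm38), lay between 270.0 and 483 CPM at 6 days with a median of 378. At 14 days it lay at 64.9, 74.7 and 95.4 CPM in the 3 libraries. The groups did not overlap, and the 14-day libraries were close to each other. Ski averaged 387 ± 75.3 CPM (SD, n = 8) at 6 days and 78.3 ± 15.6 CPM (SD, n = 3) at 14 days, a log2 change of -2.30 with a standard error of 0.24 (edgeR, adjusted p = 0.00126). The change was -2.10 against range A and -2.55 against range B, and the controls lay between 307 and 505 CPM. The 14-day values of Ski were thus below those of every 6-day and every control library.

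Ranbp9, a scaffold protein of the CTLH ubiquitin ligase complex, lay between 75.6 and 122 CPM at 6 days (median 108) and at 47.7, 33.7 and 41.4 CPM at 14 days. It fell by 1.32 on the log2 scale (edgeR, adjusted p = 0.00347). Zfp777, a zinc finger gene, lay between 54.7 and 75.3 CPM (median 63.8) and then at 26.6, 18.5 and 25.5 CPM. It fell by 1.45 on the log2 scale with the same adjusted p. For both genes the highest value at 14 days was under the lowest at 6 days.

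Genes of mitosis were prominent among those that rose. Among 21 listed genes of mitosis, 6 rose (background 2.14% of all genes tested) and none fell, and the fitted change was positive for 21 of 21, with a median of 2.06 on the log2 scale beside -0.06 over all genes tested. The 6 were Ccnb1, Prc1, Bub1b, Aurkb, Cdc20 and Kif20a. Ccnb1, the cyclin that drives entry into mitosis with CDK1 (chromosome 13, 100778739 to 100786486), lay between 0.498 and 3.95 CPM at 6 days with a median of 2.37. At 14 days its values were 36.4, 5.70 and 13.1 CPM. All 3 exceeded every 6-day library, and the first was far above the other two. The means were 2.25 ± 1.24 CPM (SD, n = 8) and 18.4 ± 16.004 CPM (SD, n = 3), an 8.14-fold difference (edgeR, adjusted p = 0.0167). The controls lay between 2.94 and 13.6 CPM.

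Prc1, which bundles microtubules of the central spindle, lay between 6.75 and 28.7 CPM at 6 days (median 19.0) and at 190, 34.8 and 89.3 CPM at 14 days. Bub1b, a kinase-like protein of the spindle checkpoint, lay between 3.48 and 27.3 CPM (median 15.03) and at 170, 26.2 and 62.0 CPM. Prc1 separated the groups, while the second 14-day value of Bub1b was inside the 6-day range. Aurkb, the kinase of the chromosomal passenger complex, rose by 2.45 on the log2 scale and Cdc20, an activator of the anaphase-promoting complex, by 2.17, both with some overlap. Kif20a, a kinesin of cytokinesis, rose by 1.25 with none. Mitotic genes outside the list were also among the genes with the largest changes. Nek2, a centrosomal kinase, lay between 0.968 and 10.6 CPM at 6 days (median 5.44) and at 74.1, 12.8 and 31.6 CPM at 14 days (edgeR, adjusted p = 0.0177). Anln, an actin-binding protein of the cleavage furrow, rose 5.82-fold and Melk, a kinase most abundant in dividing cells, 6.14-fold. In each of these genes the first 14-day library was highest and the second lowest.

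Among the 15 listed mitotic genes that were not called was Mki67, the common proliferation marker, which lay between 2.28 and 121 CPM at 6 days with a median of 29.9. Its 14-day values were 180, 42.0 and 73.0 CPM, and the last pair lay inside the 6-day range (log2 change 1.33, edgeR, adjusted p = 0.357). The log2 change of Mki67 was 2.75 against range A and 0.32 against range B, neither called. Against range A alone 14 of the 21 mitotic genes were called higher (background 3.74%), with a median of 2.52. Against range B alone 9 were called (background 17.6%), with a median of 1.54. Without the first 14-day library the median was 1.23 and none of the 21 was called. Without the third the median was 2.20 and again none was called, and without the second it was 2.47 with 11 called.

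Genes of DNA replication followed with smaller changes. Of 21 listed, 3 rose (background 2.14%) and none fell, and the median of the 21 was 1.07 on the log2 scale. After correction for GC content and length 0 of the 21 were called higher (background 0.736%). Rrm1, the large subunit of ribonucleotide reductase, lay between 59.7 and 104 CPM at 6 days (median 80.5) and at 310, 118 and 179 CPM at 14 days, with no overlap (2.53-fold, edgeR, adjusted p = 0.0253). The helicase subunits Mcm4 and Mcm2 rose 2.33-fold and 2.98-fold, but were called in only 4 and 3 of the 15 fits that left out 1 library. The clamp protein Pcna showed a log2 change of -0.01.

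Promoters of mitotic genes often hold a cell cycle homology region, read here as TTTGAA (the CHR), and CCAAT boxes, which NF-Y binds. Both motifs were chosen with the mitotic genes already known to lead the list. In RefSeq promoters of the GRCm38.p6 build, spanning 250 bases before to 50 after the start, TTTGAA was present on either strand in 13 of the 18 mitotic genes with a promoter in the table (72.2%). It was present in 12.5% of the 13057 tested genes with one. CCAAT was present in 16 of the 18 (88.9%) against 37.9%. Over all 322 matched genes that rose, the shares were 15.2% for TTTGAA and 40.4% for CCAAT, close to those of the tested genes. In the DNA replication list CCAAT was present in 70.6% and TTTGAA in 17.6% of 17 promoters. A match is a description of letters and shows no binding.

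The 250 bases before the start are shown for 3 of the mitotic genes that rose, to show how the motifs lie, with the strand of the gene read 5′ to 3′ and CCAAT (or ATTGG, its complement) and TTTGAA in capitals. The regions are chr13:100786487-100786736 (minus strand), chr4:118437344-118437593 (minus strand) and chr2:118597961-118598210 (plus strand). Only the Cdc20 window holds TTTGAA before the start.
Ccnb1: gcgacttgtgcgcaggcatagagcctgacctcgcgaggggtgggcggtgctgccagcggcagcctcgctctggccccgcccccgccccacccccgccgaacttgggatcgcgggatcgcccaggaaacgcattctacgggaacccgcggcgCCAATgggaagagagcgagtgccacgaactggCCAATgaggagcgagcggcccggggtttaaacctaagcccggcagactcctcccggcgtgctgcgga
Cdc20: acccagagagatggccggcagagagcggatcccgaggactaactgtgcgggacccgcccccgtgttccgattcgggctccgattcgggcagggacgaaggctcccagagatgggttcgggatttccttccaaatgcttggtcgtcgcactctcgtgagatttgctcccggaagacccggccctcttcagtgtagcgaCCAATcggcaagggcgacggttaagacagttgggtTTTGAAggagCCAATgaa
Bub1b: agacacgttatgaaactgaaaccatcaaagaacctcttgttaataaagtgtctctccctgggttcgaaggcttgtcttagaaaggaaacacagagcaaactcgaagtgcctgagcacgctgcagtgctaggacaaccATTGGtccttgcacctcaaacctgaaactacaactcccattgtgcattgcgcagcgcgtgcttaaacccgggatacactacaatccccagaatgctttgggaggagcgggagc

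Genes of suprabasal epidermis, the differentiating layers above the basal layer, had a higher summed level at 14 days in the first and, less so, the third library. The list summed to 8392, 957 and 2909 CPM at 14 days against 1169 to 2134 CPM at 6 days. Of 18 listed genes 2 rose (background 2.14%), none fell, and the median log2 change was 1.37. Members did not all go 1 way: the fitted change was positive for 14 and negative for 4, with a lowest value of -2.13. Krt10, the keratin that marks cells leaving the basal layer (chromosome 11, 99385254 to 99397449), lay between 122 and 461 CPM at 6 days with a median of 262. Its 14-day values were 3011, 167 and 1016 CPM, so 1 of the 3 lay inside the 6-day range. The means were 256 ± 122 CPM (SD, n = 8) and 1398 ± 1460 CPM (SD, n = 3), a 5.47-fold difference (edgeR, adjusted p = 0.0332). Dsg1a, a desmosomal cadherin of upper layers, lay between 101 and 176 CPM at 6 days (median 135) and at 707, 169 and 287 CPM (edgeR, adjusted p = 0.0185).

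Krt1, the partner of Krt10, was at 2779, 36.1 and 660 CPM at 14 days against 23.4 to 519 CPM at 6 days and was not called (edgeR, adjusted p = 0.153). Ivl, a cornified envelope precursor, was at 52.6, 4.08 and 22.5 CPM against 2.61 to 9.81 CPM and was not called either (adjusted p = 0.120). In all 4 of these genes the second library was the lowest at 14 days. Genes that make the lipids of the skin barrier had a median log2 change of 1.64, yet 0 of 10 passed the test. Elovl4, which extends very long fatty acids, was at 160, 19.7 and 41.2 CPM against 8.26 to 29.0 CPM. Without the first 14-day library the median log2 change was 0.45 for the suprabasal list and 0.47 for the barrier list.

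Several epithelial genes outside the lists had larger changes than Krt10. Fcgbp, a large mucin-like protein that binds the Fc part of IgG (chromosome 7, 28071236 to 28120864), lay between 76.5 and 241 CPM at 6 days with a median of 111. At 14 days it lay at 4066, 309 and 822 CPM, with no overlap, which its selection required. The means were 136 ± 61.8 CPM (SD, n = 8) and 1732 ± 2038 CPM (SD, n = 3), a 12.7-fold difference (edgeR, adjusted p = 0.0119). It remained called in 14 of the 15 fits that left out 1 library and had an adjusted p of 0.255 without the first 14-day library.

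Ankrd35, an ankyrin repeat protein, was at 111, 21.1 and 30.9 CPM at 14 days against 5.22 to 13.2 CPM (median 8.23) at 6 days. Slc16a9, a transporter of the monocarboxylate family, was at 30.1, 1.18 and 7.43 CPM against 0.178 to 1.07 CPM. Slc52a3, a riboflavin transporter, was at 26.3, 3.62 and 5.04 CPM against 0.674 to 2.18 CPM. Each of these separated the groups, which their selection required, with the first library highest and the second lowest (edgeR, adjusted p between 0.0173 and 0.0242). The transcription factor Nfatc2, which acts downstream of calcineurin, rose 5.60-fold in the same order.

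**Figure D2:**
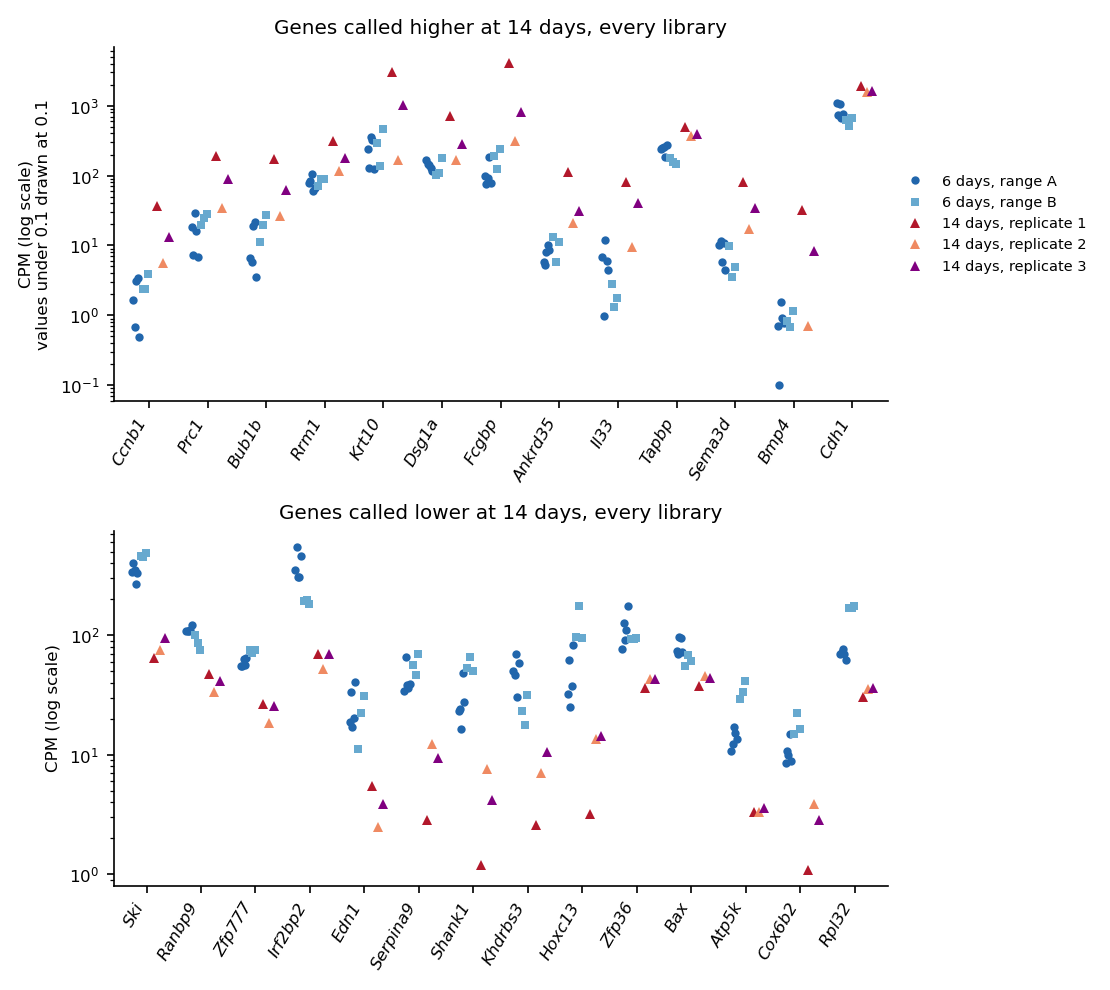
CPM on a log axis in each of the 8 6-day libraries (range A and range B) and the 3 14-day libraries, for genes that rose (top) and fell (bottom); values under 0.1 are drawn at 0.1. Among genes that rose the first 14-day library is usually the highest, as for Fcgbp at 4066 CPM, while Cdh1 (1558 to 1891 CPM) and Ski (64.9 to 95.4 CPM) have 14-day values close to each other; other genes that fell spread more, such as Hoxc13 at 3.20 to 14.2 CPM.

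Many macrophage genes, though not all, were higher at 14 days in all 3 libraries and by similar amounts, unlike the mitotic and epidermal genes. Of 13 tested genes of a myeloid list 5 rose (background 2.14%), with a median log2 change of 3.70. Members at or near 0 at 6 days passed the count filter only through libraries where they were high, so this share is no support. The list summed to between 5.25 and 14.3 CPM at 6 days and to 48.3, 36.5 and 53.1 CPM at 14 days. Csf1r, the receptor for the growth factor that macrophages need, lay between 0 and 0.596 CPM at 6 days with a median of 0.0849. At 14 days it was at 11.5, 8.85 and 14.98 CPM. The means were 0.211 ± 0.240 CPM (SD, n = 8) and 11.8 ± 3.07 CPM (SD, n = 3; edgeR, adjusted p = 0.0230). The controls lay between 0 and 7.50 CPM, so that 1 or more untreated libraries held more Csf1r than any 6-day library. Ctss, a lysosomal protease of antigen-presenting cells, was at 12.5, 8.03 and 13.5 CPM against at most 1.07 CPM at 6 days (adjusted p = 0.0363).

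The complement genes C1qa, C1qb and C1qc, made by tissue macrophages, all rose. C1qb was at most 0.166 CPM at 6 days and at 8.68, 5.37 and 8.41 CPM at 14 days (edgeR, adjusted p = 0.00984). A list of 15 genes best known from microglia, the macrophages of the brain, was then drawn up after the values had been seen. Members of this and of the myeloid list that were at or near 0 at 6 days passed the count filter only through the libraries where they were high, so the number that rose is no support and the values are a description. P2ry12, a purine receptor, was at most 0.225 CPM at 6 days and at 5.99, 5.31 and 6.65 CPM at 14 days (adjusted p = 0.00775). It was called in 14 of the 15 fits that left out 1 library and had an adjusted p of 0.0752 without the first 14-day library. Cx3cr1, the fractalkine receptor, was at most 0.203 CPM and then at 5.67, 4.96 and 8.34 CPM (adjusted p = 0.00866). Tmem119, a membrane protein of microglia, was at most 0.328 CPM and then at 3.75, 2.86 and 3.42 CPM (adjusted p = 0.0204). In all 4 genes the 6-day and 14-day libraries did not overlap.

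Fcrls, an Fc receptor-like gene, had no count in any 6-day library. It averaged 3.596 ± 0.751 CPM (SD, n = 3) at 14 days, at least 34.2-fold higher than the floor of 3 counts in the shallowest 6-day library (0.105 CPM). Adgre1, which encodes the macrophage antigen F4/80, was likewise at 0 in all 8 and was at least 8.06-fold above that floor. The pan-leukocyte gene Ptprc was at 0.575, 0.458 and 0.783 CPM against at most 0.293 CPM and was not called (edgeR, adjusted p = 0.165). Lyz2 was at 1.64, 1.06 and 2.22 CPM against at most 0.315 CPM (adjusted p = 0.0761). Cd68, a lysosomal glycoprotein also found outside macrophages, had a log2 change of -0.02. Cd14 was at 3.91, 4.94 and 4.68 CPM against 2.54 to 5.43 CPM at 6 days. Fcer1g was at 1.19, 0.737 and 1.26 CPM against 0.122 to 1.21 CPM, so both overlapped. Trem2, with no count at 6 days, was uneven at 14 days, at 0.00684, 0.427 and 1.21 CPM.

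Of 6 genes of skin and blood macrophages, also listed after the values had been seen, 5 had too few counts to be tested. At 14 days Mrc1 was at most 0.109 CPM, Cd163 at most 0.0684 CPM, F13a1 at most 0.252 CPM and the monocyte receptor Ccr2 at most 0.126 CPM. Lyve1, also a gene of lymphatic vessels, was the tested one and was not low throughout, at 2.46, 0.248 and 1.001 CPM against 0.681 to 3.55 CPM at 6 days (log2 change -0.48, not called). The 6 genes summed to 2.77, 0.388 and 1.498 CPM at 14 days against 0.805 to 3.74 CPM. Among 7 genes of other brain cells, the neuronal gene Snap25 was at most 0.0616 CPM and the oligodendrocyte gene Mog had no count at 14 days. The astrocyte gene Gfap was at 1.74, 4.74 and 3.74 CPM against 1.86 to 5.11 CPM at 6 days, and the neuronal gene Syt1 at 0.616, 0.404 and 1.19 CPM against 0 to 0.657 CPM, neither called. The 7 genes summed to between 2.47 and 5.20 CPM at 14 days and between 2.22 and 5.90 CPM at 6 days. The part that any admixed cell type has in these values was not tested, and in a bulk library fewer cells of a type and less RNA per cell cannot be told apart.

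**Figure D3:**
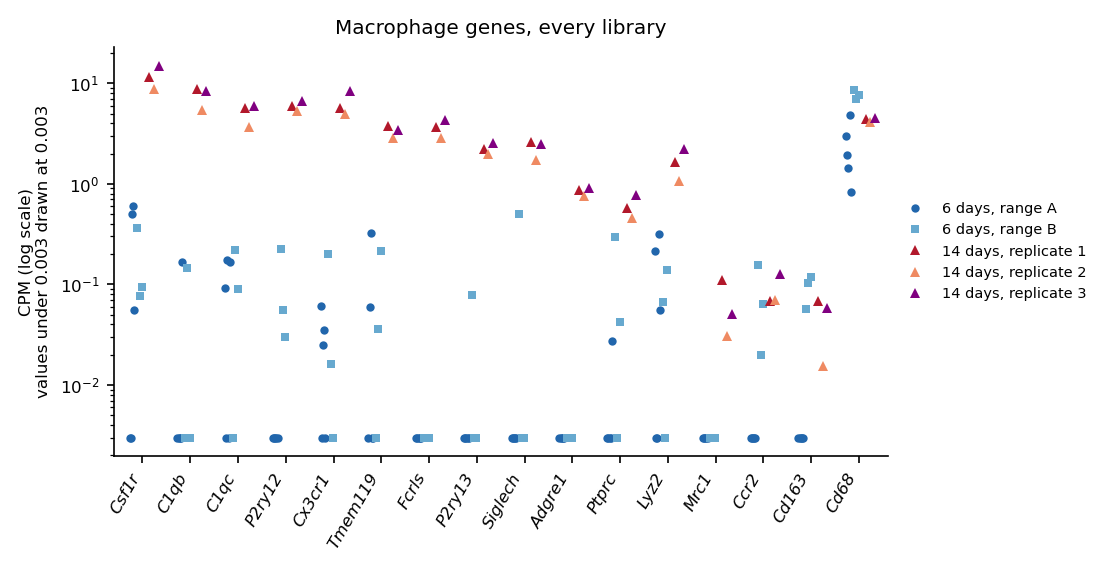
CPM on a log axis of macrophage and microglia genes in each of the 8 6-day and 3 14-day libraries; values under 0.003, zeros included, are drawn at 0.003. The 3 14-day points of Csf1r (8.85 to 14.98 CPM), P2ry12 (5.31 to 6.65 CPM) and Cx3cr1 (4.96 to 8.34 CPM) sit together above every 6-day point, whereas Cd68 overlaps and Mrc1, Cd163 and Ccr2 stay near 0.

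Genes that respond to interferon had a median log2 change of 1.20, and 3 of 18 rose (background 2.14%). After correction for GC content and length 1 of the 18 was called higher (background 0.736%). Among those that rose were the antiviral genes Rsad2 and Ifi44, both at low levels. Both were near 0 at 6 days and passed the count filter only through 14-day or control libraries, so the share that rose is no support. Rsad2 was at most 0.0682 CPM at 6 days and at 1.08, 0.0931 and 0.219 CPM at 14 days (edgeR, adjusted p = 0.0374). Ifi44 was at most 0.0561 CPM and then at 2.20, 0.109 and 1.001 CPM (adjusted p = 0.0454). In both the second library was at about the floor of 3 counts in the shallowest 6-day library (0.105 CPM). Ifit1 was at 6.48, 2.40 and 4.13 CPM against 0.140 to 1.82 CPM and did not pass (edgeR, adjusted p = 0.0867), and Isg15, a ubiquitin-like interferon target, had a log2 change of 0.32 (adjusted p = 0.774).

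The interferon response element was searched as GAAANNGAA on either strand. It was present in 11 of 15 promoters of the interferon list (73.3%), in 7.01% of the promoters of tested genes and in 6.83% of those of genes that rose. The promoter of Rsad2 is shown as an example among the genes that rose, at chr12:26456453-26456702 (minus strand), with the match (on the complementary strand) in capitals.
Rsad2: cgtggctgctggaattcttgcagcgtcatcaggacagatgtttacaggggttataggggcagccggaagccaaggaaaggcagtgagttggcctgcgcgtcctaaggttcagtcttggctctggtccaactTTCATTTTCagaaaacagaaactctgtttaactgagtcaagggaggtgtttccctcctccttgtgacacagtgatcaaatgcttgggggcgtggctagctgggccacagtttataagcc

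Tapbp, which loads peptides onto class I molecules of the major histocompatibility complex, was the 1 of 10 class I genes that rose (background 2.14%). It lay between 148 and 274 CPM at 6 days (median 209) and at 491, 368 and 389 CPM at 14 days (1.98-fold, edgeR, adjusted p = 0.0327). Tapbp was called in 9 of the 15 fits that left out 1 library, and not after correction for GC content and length (edgeR, adjusted p = 0.112). The class I heavy chain H2-K1 was at 2030, 1371 and 1209 CPM against 848 to 1310 CPM and was not called. Of 7 class II genes none was called. Cd74, the invariant chain, was at 42.6, 11.3 and 18.2 CPM against 3.35 to 10.1 CPM (adjusted p = 0.114). At 14 days the class II genes summed to 131, 69.1 and 71.2 CPM and the myeloid list to 48.3, 36.5 and 53.1 CPM. Class II genes are also made by macrophages, whose part was not tested.

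Il33, a nuclear alarmin of epithelial cells (chromosome 19, 29925113 to 29960718), was the 1 of 14 epithelial cytokines and chemokines that rose (background 2.14%). It lay between 0.978 and 11.96 CPM at 6 days with a median of 3.61 and at 80.3, 9.41 and 39.9 CPM at 14 days, so the second library lay inside the 6-day range (9.59-fold, edgeR, adjusted p = 0.0293). The log2 change was 2.86 against range A and 4.47 against range B, and without the first 14-day library the adjusted p was 0.312.

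Hedgehog target genes did not change detectably between 6 and 14 days. Of 11 tested readouts none was called, and the median log2 change was -0.87. Gli1, the transcription factor that is itself a target, lay between 77.5 and 1292 CPM at 6 days with a median of 246, and at 61.6, 116 and 146 CPM at 14 days. The means were 431 ± 406 CPM (SD, n = 8) and 108 ± 42.8 CPM (SD, n = 3; 4.002-fold lower, with a standard error of 0.84 on the log2 scale, edgeR, adjusted p = 0.169). Ptch1, the receptor, lay between 46.0 and 1004 CPM (median 156) and at 53.1, 79.4 and 129 CPM (adjusted p = 0.305). Ptch1 is also the floxed gene, and a count over its whole transcript does not check the deletion.

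The 6-day libraries spread widely in these genes. The log2 change of Gli1 was -0.76 against range A, not called, and -2.94 against range B, called (edgeR, adjusted p = 0.00287). Against range B alone 4 readouts were called lower (background 18%) and 1 higher, and the median was -1.63, beside -0.32 against range A. Hhip, a decoy receptor, had a log2 change of -0.33 and Foxe1 one of -1.59. Smo, the target of vismodegib, was at 285, 288 and 296 CPM at 14 days against 121 to 271 CPM at 6 days, which separated the groups without passing the test (log2 change 0.39, adjusted p = 0.251). None of the 10 Hedgehog transducers and co-receptors was called, with a median of 0.09.

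The other signalling lists held few called genes. None of 13 canonical Wnt readouts (median -0.35) and none of 14 Notch pathway genes (median -0.32) was called. Lgr5, the stem cell gene whose GFP reporter the mice carry, was at 281, 1027 and 800 CPM at 14 days against 466 to 1210 CPM (median 681) at 6 days, a log2 change of 0.00 with a standard error of 0.35. Axin2, a feedback target of Wnt signalling, lay at 20.4, 18.0 and 20.6 CPM against 9.76 to 60.4 CPM; its log2 change was -0.01 against range A and -1.42 against range B, called only against range B (edgeR, adjusted p = 0.000613).

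Of 15 BMP and TGF-beta genes 2 rose (background 2.14%). Bmp4, a ligand made in skin mostly by dermal and hair follicle cells, was at 32.5, 0.706 and 8.33 CPM at 14 days against 0 to 1.56 CPM (median 0.804) at 6 days (edgeR, adjusted p = 0.0293). The second library was at the 6-day level, and without the first the adjusted p was 0.410. Tgfbi, a matrix protein induced by TGF-beta, rose 1.83-fold (adjusted p = 0.0454) with overlap, and was called in only 4 of the 15 fits that left out 1 library. The BMP target genes Id1, Id2 and Id3 had log2 changes of -0.18, -0.46 and 0.03 and were not called.

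Genes of axon guidance, which also guide epithelial and endothelial cells, contributed 4 of 23 members that rose (background 2.14%) and none that fell, with a median of 0.66. Sema3d, a secreted semaphorin (chromosome 5, 12383161 to 12588953), lay between 3.57 and 11.6 CPM at 6 days with a median of 7.77 and at 81.1, 17.1 and 34.2 CPM at 14 days. The groups did not overlap (5.77-fold, edgeR, adjusted p = 0.0144), and the controls lay between 0.594 and 2.60 CPM. Sema3c rose 2.15-fold, at 386, 237 and 227 CPM against 84.0 to 192 CPM, and the plexin receptor Plxnb2 rose 1.77-fold, at 714, 422 and 434 CPM against 244 to 378 CPM. Each was called in 9 of the 15 fits that left out 1 library. After correction for GC content and length Sema3c was not called (edgeR, adjusted p = 0.106), while Plxnb2 was (edgeR, adjusted p = 0.0375). Sema3f rose by 1.60 on the log2 scale with overlap. The neuropilin Nrp2, a co-receptor for class 3 semaphorins, had a log2 change of -1.56 and was not called.

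**Figure D4:**
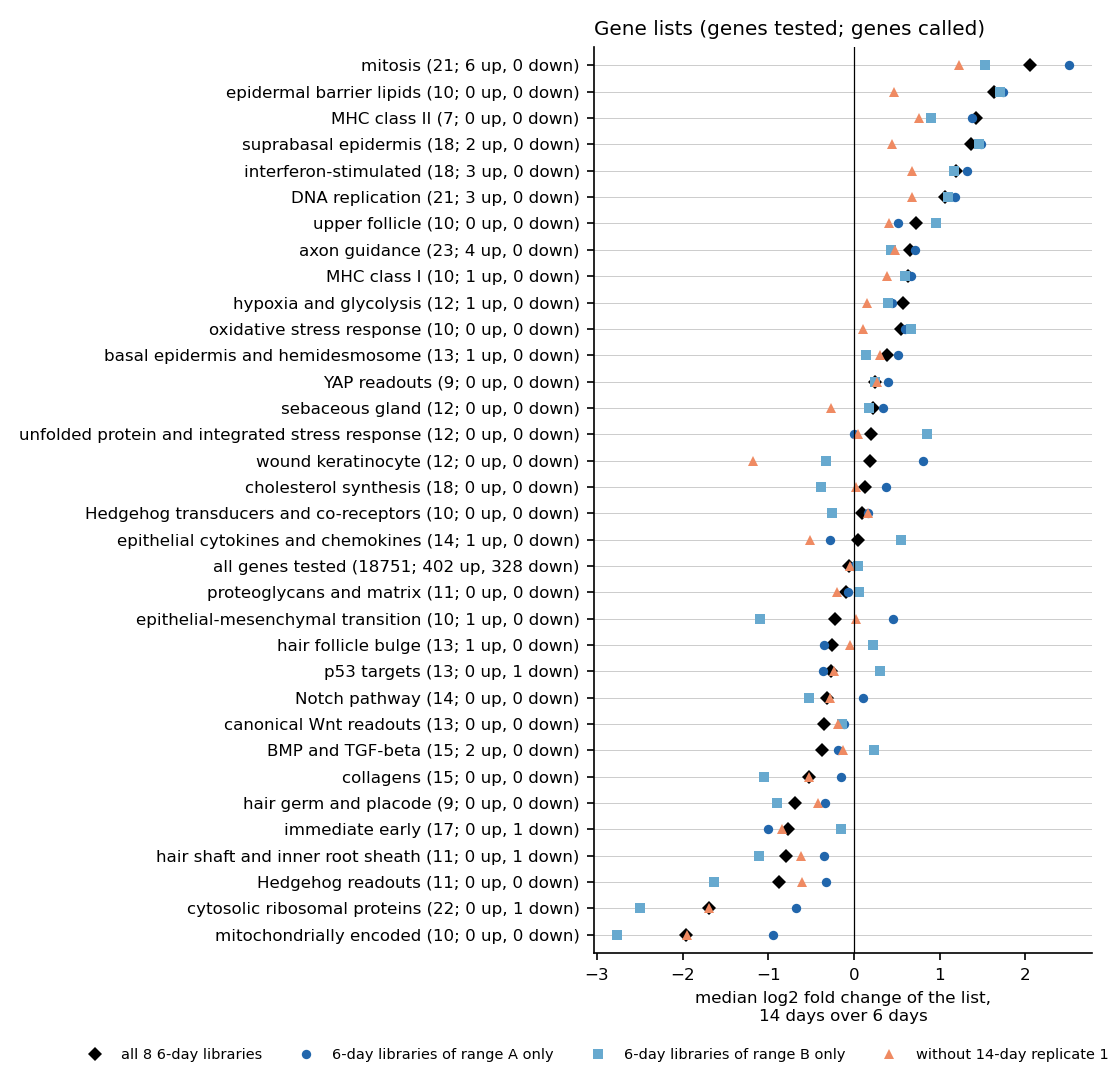
Median log2 fold change, 14 days over 6 days, of the genes of each list, for all 8 6-day libraries, for those of range A and of range B alone, and without the first 14-day library. Mitosis (2.06, 2.52, 1.54 and 1.23) stays above 0 in all 4, while the Hedgehog readouts (-0.32 against range A, -1.63 against range B) and the mitochondrially encoded genes (-0.94 and -2.77) differ widely between the ranges.

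Basal and follicle identity changed in few genes. Itga6, the integrin of hemidesmosomes and a member of both the bulge and the basal list, was at 742, 534 and 602 CPM at 14 days against 357 to 491 CPM (median 422) at 6 days (1.49-fold, edgeR, adjusted p = 0.0410). It was the only 1 of 13 bulge genes and of 13 basal genes to be called (background 2.14%), and only in 4 of the 15 fits that left out 1 library. Against range A alone Itga6 was not called (edgeR, adjusted p = 0.0689). The same held after correction for GC content and length (edgeR, adjusted p = 0.302). Krt15, a bulge keratin, was at 9670, 14433 and 11444 CPM against 6257 to 23375 CPM (log2 change -0.26, adjusted p = 0.699). Krt14, a basal keratin, was at 15553, 3657 and 6657 CPM against 3946 to 6989 CPM (adjusted p = 0.228). Both overlapped, and Krt14 was high only in the first 14-day library.

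Cdh1, the epithelial cadherin (chromosome 8, 106603350 to 106670247), rose to similar levels in the 3 14-day libraries. It lay between 515 and 1081 CPM at 6 days with a median of 700 and at 1891, 1558 and 1644 CPM at 14 days. The means were 761.6 ± 202 CPM (SD, n = 8) and 1698 ± 173 CPM (SD, n = 3), a 2.23-fold difference (edgeR, adjusted p = 0.0226), with log2 changes of 0.996 against range A and 1.52 against range B. It was called in 13 of the 15 fits that left out 1 library. After correction for GC content and length Cdh1 was not called (log2 change 0.918, edgeR, adjusted p = 0.126). None of 9 hair germ genes and none of 10 upper follicle genes was called. Lhx2, a transcription factor of follicle stem cells, was at 107, 417 and 395 CPM against 312 to 939 CPM (log2 change -1.18, adjusted p = 0.144).

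Hoxc13, a homeobox gene needed for hair keratin expression, was the 1 of 11 hair shaft and inner root sheath genes that fell (background 1.75%). It lay between 24.8 and 174 CPM at 6 days (median 72.3) and at 3.20, 13.6 and 14.2 CPM at 14 days, with no overlap (7.30-fold, edgeR, adjusted p = 0.0373). It was called in 7 of the 15 fits that left out 1 library. Krtap17-1, a keratin-associated protein of the hair shaft outside the list, fell 7.72-fold, from between 7.24 and 55.5 CPM to 1.09, 5.29 and 2.01 CPM.

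Of the gene groups examined, the respiratory chain held the most genes that fell. All 77 tested nuclear genes of the chain were taken by symbol after the first values had been seen: 16 fell (background 1.75%) and none rose, and their median log2 change was -0.62. Each of the 16 separated the groups, and their changes ran from -2.67 to -0.76. Ndufb1, a subunit of complex I, lay between 27.4 and 42.2 CPM at 6 days (median 35.0) and at 8.40, 9.69 and 9.75 CPM at 14 days. The means were 35.0 ± 4.51 CPM (SD, n = 8) and 9.28 ± 0.762 CPM (SD, n = 3), a 3.77-fold difference (edgeR, adjusted p = 0.00347). It was called in 14 of the 15 fits that left out 1 library, with an adjusted p of 0.0622 without the first 14-day library.

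Atp5k, a small subunit of the ATP synthase (chromosome 5, 108433246 to 108434399), lay between 10.7 and 41.7 CPM (median 16.1) and at 3.33, 3.31 and 3.59 CPM. It fell 6.36-fold (edgeR, adjusted p = 0.0121). Cox6b1, a subunit of complex IV, lay between 97.1 and 132 CPM and at 56.6, 49.5 and 53.4 CPM (adjusted p = 0.0173). Uqcrh of complex III lay between 47.9 and 93.0 CPM and at 30.4, 24.6 and 27.0 CPM (adjusted p = 0.0230). Cox6b2, an isoform best known from testis, fell 5.12-fold. For Atp5k, Cox6b1 and Uqcrh the 3 values at 14 days lay close to each other, while Cox6b2 was at 1.09, 3.90 and 2.84 CPM, lowest in the first library.

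The fitted change was negative for 65 of the 77 and positive for 12, and 28 lay lower in all 3 14-day libraries than in any 6-day library (background 6.28%), none higher. The summed level did not separate. The members summed to between 5612 and 8460 CPM at 6 days and to 8276, 5447 and 6456 CPM at 14 days, which overlap. Against range A 32 of the 76 tested were called lower (background 3.63%), and against range B 24 were called lower and 7 higher (background 18% lower and 17.6% higher). After correction for GC content and gene length the median was -0.25 and 6 were called lower (background 1.5%).

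Cytosolic ribosomal proteins had a median log2 change of -1.80 over 80 genes taken by symbol, and 5 fell (background 1.75%): Rpl32, Rpl37a, Rpl36, Rpl38 and Rpl41. Rpl32 lay between 61.7 and 176 CPM at 6 days (median 74.5) and at 30.5, 35.4 and 35.9 CPM at 14 days (edgeR, adjusted p = 0.0424). Rpl37a lay between 11.9 and 37.1 CPM and at 4.48, 4.94 and 4.72 CPM (adjusted p = 0.0189). The ranges differed strongly here. Against range A the median was -0.76 with 21 called lower (background 3.63%), and against range B -2.66 with 76 called lower (background 18%). Ribosomal protein genes have many near-identical copies, so the split of reads among them is uncertain, and the same holds for Rpl37rt, which fell 6.83-fold. The 10 genes encoded by mitochondrial DNA had a median of -1.96, and none was called; against range A it was -0.94 with none called and against range B -2.77 with 9 of 10 called lower, against the same background of 18%.

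Genes that fell were short. The median gene length of the 328, as the deposited RPKM values imply it, was 0.367 of the median over all tested genes, whereas that of the 402 genes that rose was 1.53 of it. Lengths under 50% of the median were found for 60.7% of the genes that fell, for 2.99% of those that rose and for 20.2% of all tested genes. With genes ranked into deciles of length, 7.25% of the shortest decile fell and 0.267% rose, and its median log2 change was -0.53. In the eighth decile 4.70% rose and 0.694% fell, with a median of 0.12. GC content differed less, with medians of 52.9% for genes that fell, 50.7% for those that rose and 50.9% for all with a value.

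The relation of length to fold was present against each range alone: the median of the shortest decile was -0.51 against range A and -0.38 against range B. The longest decile had a median of 0.12 against range A and -0.23 against range B. The relative lengths of Atp5k, Cox6b2 and Rpl32 were 0.10, 0.21 and 0.17. Several genes that fell were not short, among them Irf2bp2 at 1.56, Shank1 at 3.75 and Ranbp9 at 1.16. After correction for GC content and length Atp5k (log2 change -2.03), Cox6b2 (-1.77), Ski (-2.37), Irf2bp2 (-2.53) and Edn1 (-2.83) stayed called by edgeR, while Rpl32 (-1.22, from -1.67), Rpl41 (-1.84, from -2.48), Krtap17-1 (-2.36, from -2.95) and Bax (-0.22, from -0.80) did not. The first 3 of these kept most of their fitted change. The identifier range of the 14-day libraries and the 14 days of drug cannot be told apart in this relation.

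**Figure D5:**
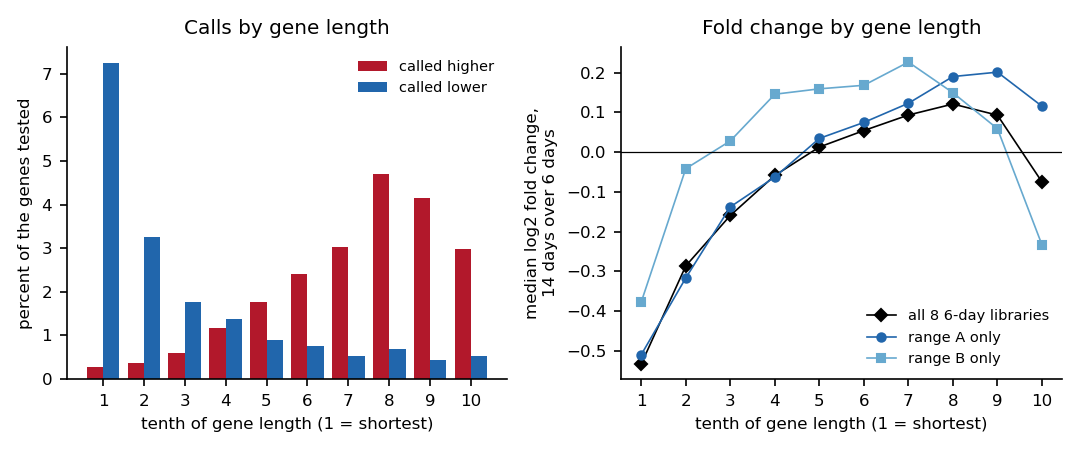
Genes tested are divided into deciles of gene length, shortest first, on the x axis; the left panel gives the percent called higher and lower at 14 days, and the right panel the median log2 fold change, 14 days over 6 days, for all 8 6-day libraries and for range A and range B alone. In the shortest decile 7.25% of genes fell and 0.267% rose, and from the fifth decile on more genes rose than fell.

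Among the remaining genes that fell, Irf2bp2, a transcriptional corepressor that partners IRF2 (chromosome 8, 126588296 to 126593986), was abundant. It lay between 183 and 542 CPM at 6 days with a median of 307 and at 70.1, 51.8 and 69.6 CPM at 14 days. The means were 318 ± 132 CPM (SD, n = 8) and 63.8 ± 10.4 CPM (SD, n = 3), a 4.98-fold difference (edgeR, adjusted p = 0.00665), and it was called in 14 of the 15 fits that left out 1 library. Without the first 14-day library its adjusted p was 0.0836.

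Edn1, the vasoactive peptide endothelin 1 (chromosome 13, 42301476 to 42307990), lay between 11.1 and 40.7 CPM at 6 days (median 21.3) and at 5.46, 2.49 and 3.88 CPM at 14 days. It fell 6.16-fold (edgeR, adjusted p = 0.0111), and the controls lay higher, between 47.1 and 144 CPM. Khdrbs3, an RNA-binding splicing regulator, lay between 17.8 and 69.1 CPM (median 39.3) and at 2.57, 7.08 and 10.4 CPM (6.13-fold, adjusted p = 0.0197), below controls at 49.95 to 136 CPM. For Edn1 the libraries were thus ordered control, 6 days, 14 days without overlap. For Khdrbs3 the 6-day and control libraries overlapped, and the 6-day mean was 51.1 CPM in range A and 24.4 CPM in range B. Differences from the controls were not tested.

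Shank1, a scaffold protein best known from synapses, lay between 16.3 and 65.9 CPM at 6 days (median 38.0) and at 1.20, 7.54 and 4.15 CPM at 14 days. It fell 9.001-fold (edgeR, adjusted p = 0.0204). Serpina9, a serine protease inhibitor, lay between 34.3 and 69.2 CPM and at 2.83, 12.3 and 9.36 CPM (5.91-fold, adjusted p = 0.0146). In both genes the first 14-day library was lowest. Samd1, a protein that binds unmethylated CpG islands, lay between 17.1 and 101 CPM and at 6.58, 5.25 and 6.40 CPM (7.51-fold, adjusted p = 0.0293).

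Of 17 immediate early genes 1 fell (background 1.75%), with a median log2 change of -0.77. It was Zfp36, which encodes an RNA-decay factor for inflammatory transcripts, at 36.4, 43.1 and 43.2 CPM at 14 days against 76.4 to 177 CPM (median 93.4) at 6 days (2.63-fold, edgeR, adjusted p = 0.0284). Fos was at 15.7, 11.1 and 32.4 CPM against 36.7 to 414 CPM, with no overlap, and was not called (adjusted p = 0.0943). Egr1 was at 227, 423 and 596 CPM against 421 to 1149 CPM (adjusted p = 0.0824).

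The tumours carry floxed p53 alleles, and of 13 p53 target genes 1 fell (background 1.75%). Bax, a pro-apoptotic member of the BCL2 family, was at 37.6, 45.9 and 44.1 CPM against 55.1 to 96.6 CPM (1.74-fold, edgeR, adjusted p = 0.0293). It is short (0.30 of the median length), and after correction for GC content and length its log2 change was -0.22 and it was not called. Cdkn1a, the main p53 target among cell cycle inhibitors, had a log2 change of 0.10. Pdk1, a kinase that limits entry of pyruvate into mitochondria, was the 1 of 12 hypoxia and glycolysis genes that rose (background 2.14%). Its values were 191, 104 and 89.1 CPM against 43.5 to 87.0 CPM (2.04-fold, edgeR, adjusted p = 0.0417). Pdk1 was called in 6 of the 15 fits that left out 1 library, and not after correction for GC content and length (edgeR, adjusted p = 0.0618).

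No gene was called in 8 other lists, which covered YAP readouts, sebaceous gland, wound keratinocytes, cholesterol synthesis, the unfolded protein and integrated stress responses, the oxidative stress response, proteoglycans and collagens. Their median log2 changes lay between -0.53 for the collagens and 0.55 for the oxidative stress response. Fibroblast markers summed to between 4.54 and 24.9 CPM at 6 days and to between 5.41 and 9.96 CPM at 14 days, endothelial markers to at most 5.95 CPM in any of the 11 libraries, and melanocyte markers to 47.5, 363 and 269 CPM at 14 days against 51.8 to 862 CPM at 6 days.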

How the data were processed

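PolyA RNA of sorted tumour cells was sequenced, per the labels' protocols. The authors' deposited counts are reads per gene and the deposited RPKM values are those counts scaled by gene length and library. GSNAP and GRCm38 are named in the submitters' processing notes; versions, the annotation and strandedness have no entry there or in the labels, and genes that overlap or lie antisense may share reads. Of 36528 gene identifiers, 31049 matched a RefSeq symbol.

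Counts of all 15 libraries were fitted in 1 model with 3 groups (edgeR 4.0.16, run in R 4.3.3, with the quasi-likelihood F test, TMM factors and the filterByExpr filter; Benjamini-Hochberg adjustment over 18751 genes, 12 residual degrees of freedom, common biological coefficient of variation 0.579). CPM is a count divided by the library total times its TMM factor and multiplied by 1e6. Relative gene lengths came from the ratio of deposited RPKM to count, fixed per gene to within a relative deviation of 1.69e-13. No 2 vismodegib libraries were alike (chi-square per degree of freedom at least 52.8 over 55 pairs).

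Members and lists were chosen with earlier results of these data known. Named genes are the 12 called genes of each direction with the largest fold, separated groups and a mean of at least 10 CPM, up to 3 called members of each of 33 lists by smallest p, and 12 genes by name. The identifiers of 5479 genes stayed unmatched and were tested but not named, and some items are not reported here. On simulated counts of 18751 genes edgeR recovered 45 of 100 4-fold and 8 of 100 2-fold changes with 0 false calls among 53, and DESeq2 made 153 calls of which 60 were false. Simulated libraries held no shift between identifier ranges, no relation to gene length and no outlying library. The number of false calls in the real comparison is therefore not known from them. DESeq2 1.42.0 and limma 3.58.1 served as alternatives, with leaving out each library, the identifier ranges, sex, thinned counts and, added after seeing the data, offsets for GC content and length.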

Additional observations from a re-analysis of the deposited data

Results flagged for a closer look

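Among the 8 6-day libraries, 1 library lay far from the others in 5 of the 56 named genes. The ratio of its gap to the whole range exceeded Dixon's 95% critical value, which chance passes in about 1 of 20 groups. For Ptch1 the ratio was 0.8216: the seventh library held 1004 CPM and the next 217 CPM. Smo gave 0.6109, with the sixth library at 121 CPM under the next at 213 CPM. Krtap17-1 gave 0.6014, with the sixth library at 55.5 CPM above 26.5 CPM. Tgfbi gave 0.5852, with the second library at 354 CPM above 279 CPM. Krt14 gave 0.5487, with the sixth library at 6989 CPM above 5319 CPM. The sixth library was thus the outlying one in 3 of the 5 genes. None of the 5 was left out of any value in the report.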

How the results depend on the processing

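The 730 genes called by edgeR, 402 higher and 328 lower, depended on the settings, while none of the 46 named genes that were called changed direction in any of them. As the settings share most libraries with the fit that called the 46, the kept direction is no separate support. Of the named genes not called, Hhip, Krt15, Lgr5 and Axin2 changed sign in at least 1. DESeq2 called 2609 (1085 higher, 1524 lower) and limma-voom with sample weights 4693 (2361, 2332). With the 11 vismodegib libraries fitted alone, edgeR called 818 (501, 317). Without a filter on low counts 460 were called (148 lower), and against a fold of 1.5 (glmTreat) 23 (9, 14). With identifier range B as a covariate 2036 were called (1000, 1036), against range A alone 1322 (671, 651) and against range B alone 8010 (3952, 4058). With sex as a covariate 217 were called (96, 121), with offsets for GC content and length 364 (120 higher), and among libraries with Xist above Ddx3y 0 (0, 0), where edgeR gave 3080 genes an unadjusted p under 0.05. The cause was not tested.

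Leaving out each library in turn gave between 3 and 1138 calls, between 0 and 617 higher and between 3 and 521 lower. The count was 3 without 14-day library 1, 43 without 14-day library 3 and 1138 without control library 4. Without 6-day libraries 1, 2, 3, 4, 5, 7 and 8 it was 485, 363, 446, 468, 277, 411 and 455. The calls that were lower numbered 203 without control library 2, 194 without control library 3 and 169 without 14-day library 2. Where 14-day library 1, 2 or 3 was left out the remaining pair was fitted with the shared spread. Of the 46 named genes called, none stayed called without 14-day library 1, 39 without library 2, 3 without library 3, 30 with the offsets and 21 with sex as a covariate. No paired analysis was possible because the labels give the libraries no replicate numbers. Shallow range A libraries limit what can be seen below 0.105 CPM, the level of 3 counts in the shallowest.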
